A study of Saccharomyces cerevisiae with 6 samples.

Results

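Aminoacyl-tRNA synthetases, the enzymes that load each amino acid onto its transfer RNA, were followed gene by gene in the budding yeast Saccharomyces cerevisiae. The list held 34 nuclear genes, of which 33 were measured among 5449 genes in all. It named 21 genes for enzymes that work in the cytosol and 13 genes for enzymes known to work only in mitochondria. Of these, 20 cytosolic and 13 mitochondrial-only genes had a named probe set, and YNL247W, the gene for cysteinyl-tRNA synthetase, was not analysed here. The tested strain carried histone H4 with arginine at residue 45 replaced by histidine (H4R45H), and it was set against WY139, the strain with wild-type histone H4 (WT). Total RNA from 3 H4R45H and 3 WT samples was read on one-colour Affymetrix arrays. Both strains grew in YPD, a rich glucose medium, and were collected in mid-log phase at an optical density of 0.5 to 0.7. The labels give no other alleles of the strains and do not say whether H4R45H was 1 clone or whether the replicates were separate cultures, so the p-values measure the spread between these samples, which may be technical.

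Every amino acid used in translation has to be joined to its own tRNA before the ribosome can use it. In yeast this is done in the cytosol and again inside mitochondria, whose own ribosomes make a small set of proteins, mostly subunits of the respiratory chain. For many amino acids the nucleus carries 1 gene for the cytosolic enzyme and another for the mitochondrial one. For others, such as alanine, glycine, histidine and valine, a single gene supplies both compartments. The enzymes also fall into class I and class II, families with unrelated catalytic folds.

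The values were array signals on a linear scale, with 1 signal per probe set. The median signal of all probe sets was 158.6 to 163.3 on the H4R45H arrays and 148.4 to 151.4 on the WT arrays. Differences are on the log2 scale, H4R45H minus WT. A gene was called when limma's test, fitted over all 5716 probe sets, gave a Benjamini-Hochberg adjusted p under 0.05, and "rose" and "fell" are kept for called genes. Over all genes 66.2% were called, 37.1% higher in H4R45H and 29.1% lower, and the median difference was 0.05. The arrays measure a transcript's share of the labelled RNA, so less RNA per cell and fewer cells holding it cannot be told apart. Each of the 33 genes was read from 1 probe set, and signals of different probe sets are not set against each other as levels.

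The cytosolic and the mitochondrial-only genes moved in opposite directions. All 20 measured cytosolic genes fell in H4R45H, with a median log2 difference of -0.40 (range -0.68 to -0.13). Of the 13 mitochondrial-only genes 10 rose, 0 fell and 3 did not pass, with a median of 0.33 (range -0.0012 to 0.82). The arrays of the strains did not overlap for 20 cytosolic genes, all lower in H4R45H, and 10 mitochondrial-only genes, all higher, against 31.6% of all genes lower and 39.8% higher without overlap. A fall of at least 1.5-fold was seen for 3 of the 20 cytosolic genes (FRS2, WRS1 and MES1), against 4.29% of all genes, and a rise of at least 1.5-fold for 3 of the 13 mitochondrial-only genes (MSF1, MSY1 and MSE1), against 18.0% of all genes. The opposition coincided with signal strength. All 20 cytosolic genes lay in the brightest of 4 equal signal classes, where 53.1% of all genes were lower, and the 13 mitochondrial-only genes lay in the dimmest 2 classes, where 59.3% and 40.8% of all genes were higher. After quantile normalization, which gives all arrays the same distribution of signals, 17 cytosolic genes were still called lower, and the mitochondrial-only genes had 4 higher and 2 lower. Of all genes 26.9% were then higher and 36.8% lower.

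**Figure D1:**
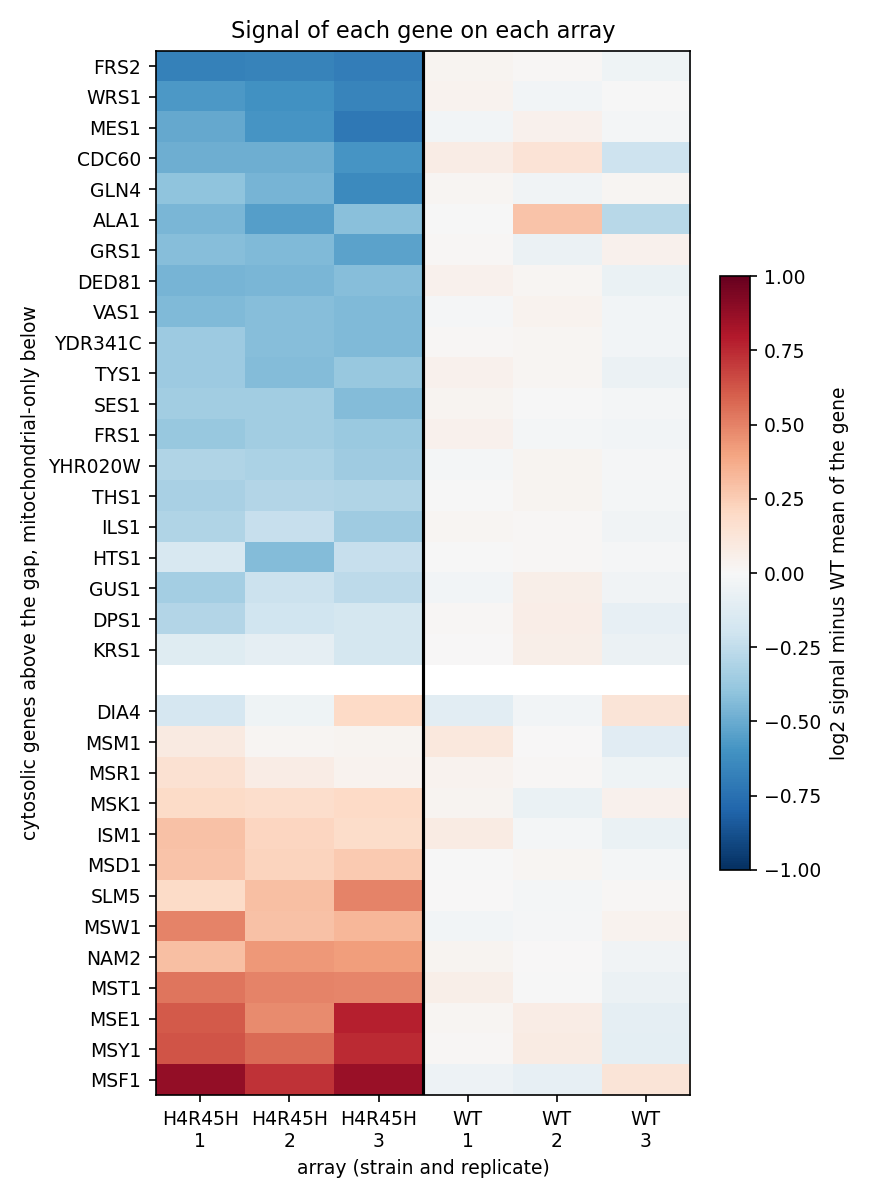
Signal of each measured synthetase gene (rows) on each array (columns, H4R45H left of WT), as log2 signal minus the gene's WT mean, in colour from blue (lower) to red (higher). The 20 cytosolic rows above the gap are blue on all 3 H4R45H arrays, and below the gap the red deepens from the 3 genes that were not called to MSF1.

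Phenylalanyl-tRNA synthetase of the cytosol is built from an alpha subunit, encoded by FRS2, and a beta subunit, encoded by FRS1. FRS2 had signals of 511.4, 515.1 and 506.8 in H4R45H, against 833.6, 826.7 and 794.5 in WT. This was the largest fall of the cytosolic genes, 1.60-fold (log2 difference -0.68, SE 0.047, adjusted p = 8.8e-07), and the arrays of each strain lay close together. FRS1 had signals of 742.1, 756.7 and 745.1 in H4R45H, against 993.2, 951.8 and 946.2 in WT. It fell less than its partner subunit, by 0.37 on the log2 scale. The change of FRS2 was lower than that of FRS1 by a log2 difference of -0.31 (SE 0.017), with ratios that did not overlap between strains (exact two-sided permutation test over the 6 arrays, p = 0.1, the smallest that 3 against 3 can give).

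WRS1, which charges tryptophan, had signals of 345.9, 337.5 and 325.7 in H4R45H, against 527.6, 504.2 and 512.9 in WT. That is a 1.53-fold fall (log2 difference -0.61, SE 0.053, adjusted p = 3.8e-06). CDC60, which charges leucine and was first known as a cell cycle gene, had signals of 640.2, 640.7 and 597.3 in H4R45H, against 941.9, 983.2 and 778.5 in WT. Its WT values were spread more widely than those of WRS1, with the third WT array lowest, yet the strains did not overlap (log2 difference -0.52, SE 0.080, adjusted p = 0.00024). GLN4, which charges glutamine, had signals of 553.7, 528.6 and 470.1 in H4R45H, against 739.1, 713.9 and 740.7 in WT, a log2 difference of -0.50.

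Methionyl- and glutamyl-tRNA synthetase, encoded by MES1 and GUS1, are bound together in the yeast cytosol by the tRNA-binding cofactor Arc1, which is not itself a synthetase. MES1 had signals of 503.8, 478.7 and 437.5 in H4R45H, against 707.1, 743.0 and 708.7 in WT, a 1.52-fold fall (log2 difference -0.61, SE 0.061). GUS1 had signals of 1059.3, 1157.2 and 1121.1 in H4R45H, against 1320.0, 1400.0 and 1310.3 in WT, a log2 difference of -0.27 (SE 0.049). ARC1, which was not on the synthetase list, fell as well, with signals of 805.3, 821.0 and 801.7 in H4R45H, against 1087.4, 1085.1 and 1026.4 in WT (log2 difference -0.40, adjusted p = 2.7e-05). All 3 genes of this complex therefore had lower signals on every H4R45H array than on any WT array. So did all 20 measured cytosolic synthetase genes and 31.6% of all genes. The 3 genes lay in the brightest signal class, where 53.1% of all genes were called lower. The log2 change of MES1 minus that of GUS1 was -0.33 (SE 0.085; exact two-sided permutation p = 0.1, the smallest possible).

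A group of 4 measured genes supplies both compartments from 1 gene, and all 4 fell, as all 20 measured cytosolic genes did. Over all genes 29.1% were lower, and 53.1% in the brightest signal class, which held these 4. GRS1, which charges glycine, had signals of 1079.9, 1069.8 and 1005.0 in H4R45H, against 1466.6, 1396.7 and 1501.0 in WT (log2 difference -0.47, SE 0.047). VAS1, for valine, had 654.5, 663.4 and 656.6 in H4R45H, against 882.3, 913.5 and 874.9 in WT (log2 difference -0.44). These were tight groups with a wide gap between strains. ALA1, for alanine, had 710.3, 666.6 and 729.1 in H4R45H, against 971.6, 1191.2 and 805.0 in WT. Its WT arrays were spread widely, so its difference of -0.48 had the largest error of the cytosolic genes (SE 0.113, adjusted p = 0.0035). HTS1, for histidine, had 905.5, 750.8 and 863.0 in H4R45H, against 1012.9, 1020.6 and 1007.1 in WT, and here the spread was on the H4R45H side (log2 difference -0.28, adjusted p = 0.0035). The median of these 4 genes was -0.45, beside -0.38 for the 14 cytosolic genes that have a mitochondrial partner, and the difference between these medians was not tested.

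GRS1 has a paralog, GRS2, a second gene for glycyl-tRNA synthetase that is little used in ordinary growth and was not on the list. GRS2 moved the other way, with signals of 91.9, 89.1 and 97.4 in H4R45H, against 48.9, 58.9 and 49.1 in WT, a 1.78-fold rise (log2 difference 0.83, SE 0.092, adjusted p = 2.2e-05). The change of GRS1 was lower than that of GRS2 by a log2 difference of -1.30 (SE 0.136), with an exact two-sided permutation p of 0.1 over the 6 arrays, the smallest possible. GRS1 lay in the brightest signal class and GRS2 in the dimmest, where 59.3% of all genes were higher and the median difference was 0.43. After quantile normalization GRS1 was at -0.30 and GRS2 at 0.50, both still called.

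DED81, for asparagine, and YHR020W, for proline, are neighbours on chromosome VIII that are read away from each other, by the gene order of the RefSeq table. DED81 had signals of 986.9, 990.3 and 1009.8 in H4R45H, against 1398.6, 1379.4 and 1301.5 in WT (log2 difference -0.45). YHR020W had 970.5, 961.8 and 935.1 in H4R45H, against 1182.0, 1222.1 and 1190.1 in WT (log2 difference -0.33). Both genes of this pair fell with no overlap between strains. Of the 13 other cytosolic genes whose upstream neighbour is divergent and was measured, the neighbour was lower in 5, higher in 4 and not called in 4, beside 29.1% lower and 37.1% higher over all genes.

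YDR341C, for arginine, had signals of 995.9, 953.1 and 944.7 in H4R45H, against 1294.6, 1298.0 and 1259.0 in WT (log2 difference -0.41). TYS1, for tyrosine, had 872.0, 828.6 and 860.1 in H4R45H, against 1152.6, 1133.7 and 1072.1 in WT (log2 difference -0.39). SES1, for serine, had 756.6, 753.9 and 710.6 in H4R45H, against 981.0, 957.0 and 947.4 in WT (log2 difference -0.38). These 3 genes sat near the middle of the cytosolic group, 1.30-fold to 1.33-fold lower in H4R45H. THS1, for threonine, had 988.1, 1012.5 and 1005.8 in H4R45H, against 1233.9, 1261.3 and 1217.8 in WT (log2 difference -0.30). ILS1, for isoleucine, had 1008.0, 1055.7 and 967.0 in H4R45H, against 1258.2, 1252.4 and 1208.7 in WT (log2 difference -0.30).

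The smallest falls of the cytosolic genes were those of DPS1 and KRS1. DPS1, for aspartate, had signals of 902.4, 965.0 and 979.3 in H4R45H, against 1119.5, 1158.6 and 1048.6 in WT (log2 difference -0.22, SE 0.053). KRS1, for lysine, had 1244.9, 1273.1 and 1200.7 in H4R45H, against 1357.3, 1409.6 and 1304.6 in WT (log2 difference -0.13, SE 0.046, adjusted p = 0.027). The KRS1 strains lay close together without overlapping, and its call was lost when H4R45H replicate 3, WT replicate 1 or WT replicate 2 was left out (adjusted p = 0.076 to 0.12). By class, all 9 measured class I genes fell (median -0.44), and all 11 class II genes fell (median -0.37), beside 53.1% of all genes in their signal class.

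**Figure D2:**
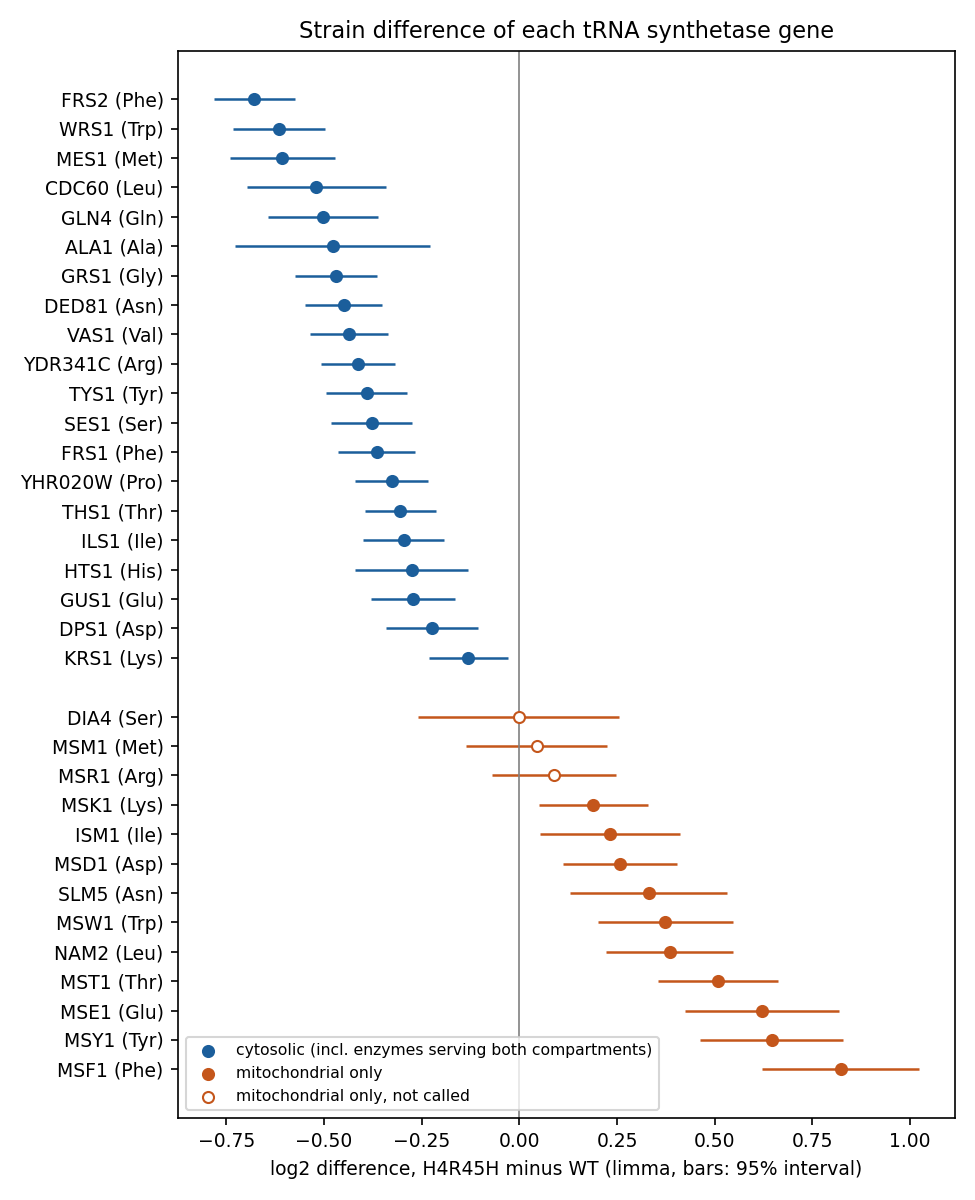
Log2 difference (H4R45H minus WT) of each measured synthetase gene with its 95% interval from limma, ordered by size within the cytosolic (blue, above) and mitochondrial-only (orange, below) genes, with open points for genes that were not called. The cytosolic points run from -0.68 for FRS2 to -0.13 for KRS1, and the mitochondrial ones from -0.0012 for DIA4 to 0.82 for MSF1, all with the signals as deposited.

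Among the mitochondrial-only enzymes the genes for phenylalanine, tyrosine, glutamate and threonine rose most. MSF1, for phenylalanine, had signals of 76.4, 68.5 and 75.6 in H4R45H, against 40.1, 39.2 and 45.5 in WT, a 1.77-fold rise (log2 difference 0.82, SE 0.091, adjusted p = 2.2e-05). MSY1, for tyrosine, had 93.1, 89.1 and 101.3 in H4R45H, against 60.9, 63.9 and 56.4 in WT, a 1.56-fold rise (log2 difference 0.65, adjusted p = 6.4e-05). Every H4R45H array was well above every WT array for both. MSE1, for glutamate, had 131.3, 119.2 and 147.5 in H4R45H, against 87.2, 90.3 and 80.7 in WT, a 1.54-fold rise with a wider spread among the H4R45H arrays (log2 difference 0.62, SE 0.089). MST1, for threonine, had 109.9, 107.2 and 106.7 in H4R45H, against 79.2, 75.9 and 72.8 in WT, a 1.42-fold rise (log2 difference 0.51, SE 0.069). These 4 were also the mitochondrial-only genes that were called higher after quantile normalization, with log2 differences of 0.40 for MSF1, 0.35 for MSY1, 0.44 for MSE1 and 0.27 for MST1 (adjusted p = 0.0020 to 0.0071).

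A further 6 mitochondrial-only genes rose by less. NAM2, the leucyl enzyme, which also helps to splice mitochondrial introns, had signals of 84.0, 92.2 and 90.9 in H4R45H, against 69.5, 68.3 and 66.6 in WT (log2 difference 0.39, SE 0.073). MSW1, for tryptophan, had 100.8, 87.5 and 90.3 in H4R45H, against 70.4, 70.9 and 73.4 in WT (log2 difference 0.37). SLM5, for asparagine, had 62.9, 67.8 and 77.6 in H4R45H, against 55.2, 54.4 and 55.4 in WT (log2 difference 0.33). For these 3 the WT arrays lay within a few units of each other and the H4R45H arrays were scattered above them. MSD1, for aspartate, had 106.3, 101.9 and 104.7 in H4R45H, against 87.2, 88.7 and 86.0 in WT (log2 difference 0.26). ISM1, for isoleucine, had 66.5, 63.0 and 61.5 in H4R45H, against 57.5, 53.6 and 51.7 in WT (log2 difference 0.23, adjusted p = 0.027). MSK1, for lysine, had 158.3, 156.1 and 159.2 in H4R45H, against 140.8, 132.2 and 142.6 in WT (log2 difference 0.19, adjusted p = 0.021). None of these 6 was called after quantile or cyclic loess normalization (which removes a curved dependence on signal), and ISM1 turned to -0.19 and -0.10. As deposited, the ISM1 call was lost without H4R45H replicate 1 or 2 or WT replicate 2 or 3 (adjusted p = 0.063 to 0.088), and the MSK1 call without H4R45H replicate 2 or WT replicate 2 (adjusted p = 0.052 and 0.097).

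MSR1, MSM1 and DIA4 did not pass the test. MSR1, for arginine, had signals of 91.2, 86.3 and 83.8 in H4R45H, against 84.1, 82.4 and 79.3 in WT (log2 difference 0.09, 95% interval -0.07 to 0.25). MSM1, for methionine, had 68.9, 65.5 and 65.9 in H4R45H, against 69.7, 64.9 and 60.0 in WT (log2 difference 0.04, 95% interval -0.14 to 0.23). DIA4, the probable seryl enzyme, had 33.0, 36.0 and 42.6 in H4R45H, against 34.5, 36.4 and 40.4 in WT (log2 difference -0.0012, 95% interval -0.26 to 0.26). The strains overlapped for DIA4 and MSM1 and also for MSR1, and each interval spans 0. After quantile normalization DIA4 was called lower (-0.62, adjusted p = 0.0012) and so was MSM1 (-0.32, adjusted p = 0.0071). Both were called lower after cyclic loess normalization too, DIA4 at -0.52 and MSM1 at -0.24. By class, 5 of 7 class I and 5 of 6 class II mitochondrial-only genes rose. Of all genes 37.1% were higher, and 59.3% and 40.8% in the 2 signal classes that held these enzymes.

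Setting each cytosolic gene beside the mitochondrial gene for the same amino acid gave 14 pairs over 13 mitochondrial genes, with FRS1 and FRS2 both paired to MSF1. In all 14 pairs the log2 ratio of cytosolic to mitochondrial signal was lower in H4R45H, and in 11 pairs the cytosolic gene fell while the mitochondrial gene rose. The highest cytosolic difference (-0.13, KRS1) lay below the lowest mitochondrial-only one (-0.0012, DIA4). Any pairing of the 2 groups would thus give 14 of 14, so matching by amino acid adds nothing to this count. In those 11 pairs neither gene overlapped between strains, so their ratios could not overlap either. The cytosolic genes lay in the brightest signal class, where the median difference of all genes was -0.16. The mitochondrial genes lay in the dimmest 2 classes, where it was 0.43 and 0.11. Bright over dim ratios of other genes were not computed, so the pair counts have no background share. The ratio differed between strains most for FRS2 over MSF1, by a log2 difference of -1.50 (SE 0.104). It was -1.04 for TYS1 over MSY1 (SE 0.056), -0.99 for WRS1 over MSW1 (SE 0.058) and -0.90 for CDC60 over NAM2 (SE 0.109). Ratios for SES1 over DIA4 (-0.38, SE 0.159) and KRS1 over MSK1 (-0.32, SE 0.073) moved least. The ratio of SES1 over DIA4 moved by -0.25 without H4R45H replicate 3, and in the opposite direction after quantile (0.37) and cyclic loess normalization (0.29). In each of the 14 pairs the 3 ratios of H4R45H lay below the 3 of WT. The exact two-sided permutation p of each pair was 0.1, the smallest that this design allows, so no pair could reach a p under 0.05.

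**Figure D3:**
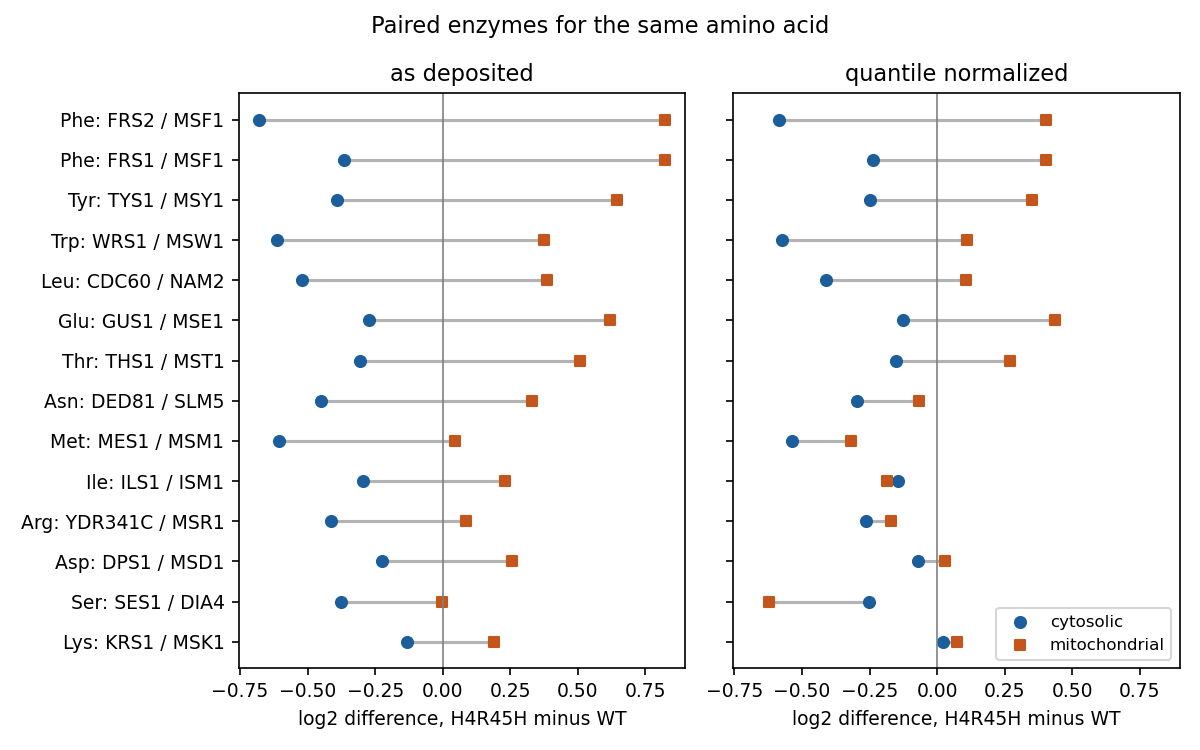
Log2 difference (H4R45H minus WT) of the cytosolic gene (blue circles) and the mitochondrial gene (orange squares) for the same amino acid, in 14 pairs, with the signals as deposited (left) and after quantile normalization (right). The cytosolic gene lies left of the mitochondrial one in all 14 pairs on the left and in 12 on the right, the exceptions being SES1 with DIA4 and ILS1 with ISM1.

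The scaling of the arrays moved the calls of the mitochondrial-only genes more than those of the cytosolic genes. As deposited, dim genes as a body were higher in H4R45H and bright genes lower. Among the 815 other genes whose mean signal lay within the range of the cytosolic genes (416 to 1290), 50.7% were called lower and the median difference was -0.14, beside 20 of 20 and -0.40 for the cytosolic genes. Among the 2047 other genes within the range of the mitochondrial-only genes (37.0 to 148), 47.2% were called higher and the median was 0.18, beside 10 of 13 and 0.33 for the mitochondrial-only genes. In the dimmest signal class the 7 mitochondrial-only genes had a median of 0.33, below the 0.43 of all genes there. In the next class the 6 mitochondrial-only genes had 0.32, above the 0.11 of all genes there.

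After quantile normalization 17 of 20 cytosolic genes were lower and 0 higher, with a median of -0.26, while the 815 other genes of their signal range had a median of -0.04 and 37.3% called lower. KRS1, DPS1 and HTS1 lost their calls (KRS1 at 0.020). The mitochondrial-only genes then had 4 higher and 2 lower, with a median of 0.07, while the 2047 other genes of their range had a median of -0.07, 27.1% called higher and 37.5% called lower. Cyclic loess gave the same counts, 17 lower for the cytosolic genes and 4 higher and 2 lower for the mitochondrial-only genes, with medians of -0.24 and 0.15. With cyclic loess 32.6% of the other genes in the cytosolic range were lower. In the mitochondrial-only range 30.5% of the other genes were higher and 31.3% lower, beside 30.7% and 30.4% of all genes. The median of the cytosolic genes minus that of the mitochondrial-only genes was -0.73 as deposited, -0.33 after quantile normalization and -0.39 after cyclic loess. Quantile normalization moved the median of all genes to -0.07, against 0.05 as deposited, and changed the share called higher to 26.9% and lower to 36.8%.

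**Figure D4:**
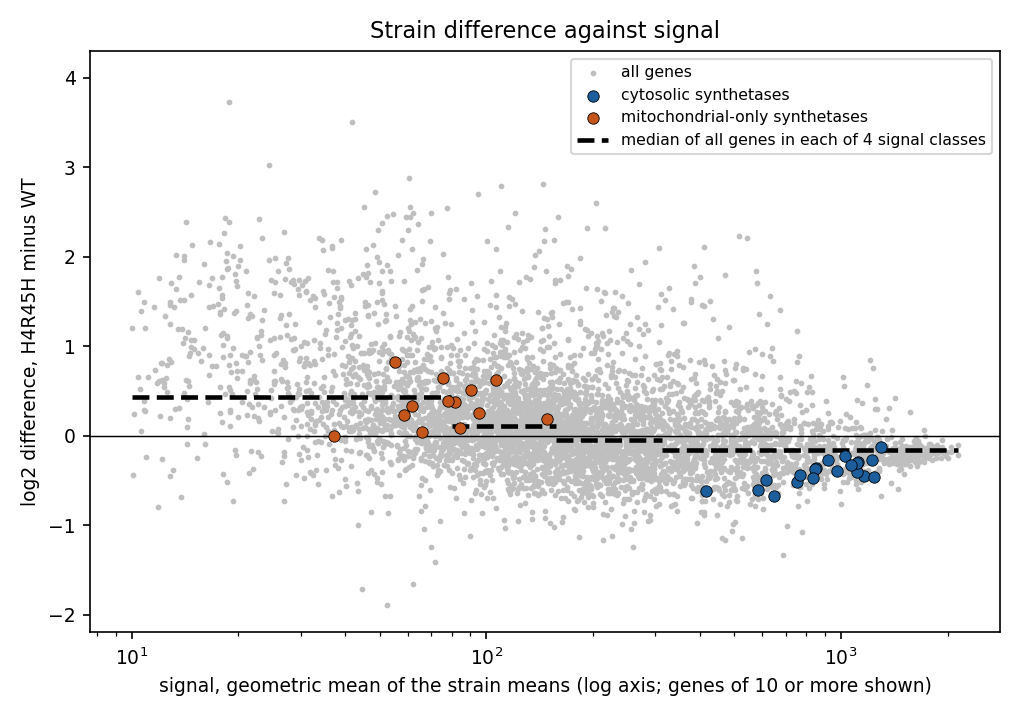
Log2 difference (H4R45H minus WT) of all genes against their mean signal on a log axis, as deposited, with cytosolic synthetases in blue and mitochondrial-only synthetases in orange. Dashed lines give the median of all genes in 4 equal signal classes (0.43, 0.11, -0.05 and -0.16, dim to bright), and the cytosolic genes lie below the line of their class except KRS1.

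Genes that work beside the synthetases were read from lists of known function. The mitochondrial charging partners had 5 of 6 genes higher and 0 lower as deposited (median 0.27), and 3 higher and 1 lower after quantile normalization (median 0.07). Over all genes 37.1% were higher and 29.1% lower as deposited, and 26.9% and 36.8% after quantile normalization. Mitochondria make glutaminyl-tRNA with an amidotransferase of 3 subunits instead of a glutaminyl enzyme, and all 3 of its genes rose as deposited. PET112 had signals of 39.8, 43.0 and 43.6 in H4R45H, against 32.8, 29.7 and 34.3 in WT (log2 difference 0.39). But it was called lower after quantile normalization (-0.24, adjusted p = 0.046) and turned to -0.14 after cyclic loess, with no call. HER2 rose by 0.18 on the log2 scale (adjusted p = 0.048) and turned to -0.059 after quantile normalization. GTF1 rose by 0.25 as deposited and was called higher after quantile and cyclic loess normalization too, though not after median centring (adjusted p = 0.054). AIM10, a relative of prolyl-tRNA synthetases, had 119.6, 137.8 and 133.2 in H4R45H, against 96.1, 92.7 and 89.1 in WT (log2 difference 0.49, and 0.30 after quantile normalization), while YHR020W, the cytosolic prolyl enzyme, fell. TUF1, the mitochondrial elongation factor that carries charged tRNA to the ribosome, had 601.8, 615.7 and 601.2 in H4R45H, against 506.8, 494.6 and 489.9 in WT (log2 difference 0.29, and 0.34 after quantile normalization). TUF1 lies in the brightest signal class, where most genes called were lower, yet its H4R45H arrays were all above its WT arrays. FMT1, which formylates the initiator tRNA, was not called as deposited, with signals of 2.9, 4.0 and 3.9 in H4R45H, against 3.4, 2.6 and 3.8 in WT. From these very dim signals FMT1 was at -0.56 after quantile normalization, with no call, and was called lower after cyclic loess (-0.87, adjusted p = 0.027). PET112 and FMT1 lay in the dimmest signal class and HER2 and AIM10 in the next, where 59.3% and 40.8% of all genes were higher as deposited.

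Of 8 measured other genes of tRNA charging and handling, 2 rose, 3 fell and 3 did not pass (median -0.05), beside 37.1% higher and 29.1% lower over all genes. Beside GRS2 and ARC1, the D-aminoacyl-tRNA deacylase gene DTD1 fell, with signals of 227.8, 221.2 and 211.7 in H4R45H, against 270.0, 253.0 and 286.0 in WT. PTH1, a peptidyl-tRNA hydrolase, rose by 0.82 on the log2 scale from dim signals and turned to -0.064 after quantile normalization. GRS2 was still higher after quantile normalization, by 0.50. Among 7 mitochondrial translation factors 4 rose, 1 fell and 2 did not pass (median 0.24). All of them but MEF1 lay in the dimmest 2 signal classes, where 59.3% and 40.8% of all genes were higher. The median of these 7 genes turned to -0.20 once quantile-normalized, and to -0.12 under cyclic loess. Once quantile-normalized, 3 of them were up and 3 down, beside 26.9% and 36.8% of all genes. GUF1 rose 1.52-fold and MEF2 1.46-fold, both GTPases of the mitochondrial ribosome, and both were called higher after quantile and cyclic loess normalization too. AIM23, an initiation factor, fell, with 33.5, 26.5 and 32.5 in H4R45H, against 61.3, 59.2 and 63.4 in WT (adjusted p = 1.7e-05), more than any synthetase gene did.

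Among cytosolic translation factors 33 of 35 fell and 0 rose, with a median of -0.38, beside 29.1% of all genes called lower. The list includes TIF6 and GCD10 (both lower), which are not translation factors in the strict sense. Most of the 35 lay in the brightest signal class, where 53.1% of all genes were lower. After quantile normalization 26 were lower (median -0.26) and after cyclic loess 24 (median -0.22), beside 36.8% and 30.4% of all genes. TIF4631, an eIF4G scaffold of initiation, fell 1.60-fold. Mitochondrial ribosomal proteins, named by their MRPL, MRPS and RSM symbols, were mixed. Of 54 measured, 17 rose, 8 fell and 29 did not pass, with a median of 0.08, and the 31.5% higher and 14.8% lower stand beside 37.1% and 29.1% of all genes. After quantile normalization 10 were higher and 11 lower, beside 26.9% and 36.8% of all genes. After median centring, which subtracts each array's median, 8 were higher and 17 lower, beside 30.3% and 38.6% of all genes. The direction of the mitochondrial ribosomal proteins as a body is thus not settled by these arrays. No difference between these lists and the synthetases was tested.

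Amino acid synthesis genes of the kind controlled by the activator Gcn4, which in starved cells also raises some synthetase genes, were called in both directions. Of 25 measured, 5 rose, 10 fell and 10 did not pass (median -0.12), beside 37.1% higher and 29.1% lower over all genes. The 25 include GCN4 (lower), ADE4 (lower) and SNZ1 (higher), which are not themselves amino acid synthesis genes. After quantile normalization 7 were higher and 6 lower, beside 26.9% and 36.8% of all genes. After median centring 3 were higher and 15 lower, beside 30.3% and 38.6% of all genes. GCN4 itself had signals of 1290.6, 1340.4 and 1327.1 in H4R45H, against 1415.0, 1491.6 and 1495.3 in WT (log2 difference -0.15, adjusted p = 0.0082), which was -0.26 after median centring (adjusted p = 0.00076) and turned to 0.028 after quantile and 0.026 after cyclic loess normalization, with no call. SNZ1, a vitamin B6 gene on the same list, rose 3.46-fold, and HIS1, of histidine synthesis, fell 1.53-fold.

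By position, none of the 33 genes lay among the outermost 10 open reading frames of a chromosome arm, the nearest being 20 places from an end. For the 6 mitochondrial-only genes with a measured divergent neighbour, that neighbour was higher in 1, lower in 1 and not called in 4. Over all genes 37.1% were higher and 29.1% lower.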

How the data were processed

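The deposited values are intensities, 1 signal per probe set for 6 arrays, which the authors made with MAS5, per the submitters' processing notes, from about 20 µg of total RNA per sample, per the labels' protocols. The sources used here give neither a MAS5 version nor its scaling target or detection calls. The number of arrays limits the precision. Of 5716 probe sets 5498 had 1 gene by the platform annotation, and current symbols came from the RefSeq table (assembly R64) by Entrez identifier. A gene was read from its brightest probe set. Signals were taken as log2, with 7 values at 0 set to 0.1, and limma 3.58.1 in R 4.3.3 fitted the strains (lmFit, eBayes with trend) over all probe sets, two-sided. The fit was tested on simulated data.

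The members and lists were chosen with earlier results of these data known, and the rule for named genes gives array values for the 5 largest called differences each way and the 3 nearest 0 in each compartment, and for both genes of pairs called in opposite directions; the remaining members were added for completeness. The fit was repeated after quantile or cyclic loess normalization or median centring, with 50 added to each signal, with eBayes lacking the trend, on the brighter 75% of probe sets, with replicate number as a block, without each array in turn, and with probe sets averaged per gene. The averaging could not change the 33 synthetase genes, as each had 1 probe set. Same-numbered arrays of the strains deviated together with correlations of -0.18 to 0.10, so replicate numbers were not taken as pairs.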

Additional observations from a re-analysis of the deposited data

How the results depend on the processing

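Direction and call were kept for 17 of 20 cytosolic and 4 of 13 mitochondrial-only genes in every alternative that tested them. The cytosolic count of lower genes was 17 to 20 and of higher genes 0 throughout. Quantile normalization gave medians of -0.26 (cytosolic) and 0.072 (mitochondrial-only), a contrast of -0.33, and 4 higher and 2 lower mitochondrial-only genes. Cyclic loess gave -0.24, 0.15, -0.39, 4 and 2. Over all genes 26.9% were higher and 36.8% lower after quantile normalization, and 30.7% and 30.4% after cyclic loess. Median centring gave -0.51 and 0.23, with 6 mitochondrial-only genes higher, beside 30.3% of all genes higher and 38.6% lower. A pseudocount of 50 gave 0.18 for the mitochondrial-only median and -0.57 for the contrast. Without the dimmest 25% of probe sets 6 mitochondrial-only genes remained under test, with 5 higher, and 6 pairs, in all 6 of which the cytosolic change was the lower. Leaving out 1 array gave 8 to 10 mitochondrial-only genes higher, medians of 0.26 to 0.35 and a contrast of -0.76 to -0.65, the values nearest 0 coming without H4R45H replicate 3.

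Signs turned for KRS1 (0.020 after quantile, 0.045 after cyclic loess), ISM1 (-0.19, -0.10), MSM1 (-0.32, -0.24, and -0.059 after median centring), MSR1 (-0.17, -0.11, and -0.015 after median centring) and SLM5 (-0.067 after quantile). MSM1 ran between -0.011 (without WT replicate 3) and 0.097 when 1 array was left out. DIA4, near 0 as deposited, was at 0.0007 with the pseudocount, 0.081 without H4R45H replicate 1, 0.018 without H4R45H replicate 2 and 0.062 without WT replicate 3. Of these turned values only MSM1 after quantile and cyclic loess normalization passed the test. The cause of these changes was not tested. With the replicate block, for numbers that share no stated source, the counts stayed at 20 cytosolic lower and 10 mitochondrial-only higher, and it changed no call. Pairs with the lower cytosolic change, 14 as deposited, were 12 after quantile and 13 after cyclic loess normalization and 14 when any 1 array was left out (alternatives chosen for the pairs after seeing the data). Dim signals limit the mitochondrial-only genes, which lay between 33.0 and 159.2 on every array.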
